A study of Mus musculus with 10 samples.

Results

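The genes described here are 6 transcription factors of the trophectoderm (Cdx2, Elf5, Eomes, Gata3, Tfap2c and Hand1) and 4 keratins of simple epithelia (Krt7, Krt8, Krt18 and Krt19), chosen by name. All 10 were found among the 20206 genes of the table by their mouse gene identifiers, none had values identical to those of another gene, and 9 of them were among the 14354 genes tested. RNA sequencing covered 10 male, wild-type C57Bl/6 mouse embryonic stem cell (ESC) lines. Mothers aged 7 to 9 weeks ate an isocaloric diet after mating until embryonic day 3.5, either low protein (LPD, 9% casein) or normal protein (NPD, 18% casein). The groups are LPD lines 1, 4, 6, 20 and 40 and NPD lines 8, 15, 21, 36 and 51, 5 lines a diet, each from a different mother. Lines of both diets were derived on mouse embryonic fibroblast feeders, and RNA was taken from ESCs in fibroblast-free media. A line is a culture grown from 1 blastocyst over several passages, so it stands for its embryo only as far as that culture has kept the embryo's state.

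The trophectoderm is the outer layer of the blastocyst and the source of the placenta, while ESCs come from the inner cell mass. In the outer cells, Tead4 with its coactivators Yap1 and Wwtr1 switches on Cdx2 and Gata3, and the Pou5f1 program of the inner cells and the Cdx2 program of the outer cells repress each other. Krt8 and Krt18, the first keratins of the embryo, pair as a type II and a type I chain to form filaments, and Krt7 (type II) and Krt19 (type I) join them in trophectoderm and other single-layered epithelia.

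Values are normalized estimated counts per gene, which can be compared between lines. Levels of different genes are compared only per kb of their longest annotated transcript. The lines differed in depth. The NPD lines held 20411426 to 23181389 read equivalents (the summed values expressed in units of what 1 read adds), and the LPD lines 5845851 to 24107247, the least in LPD line 4. The labels call all lines male, but Ddx3y, a Y-linked gene, stood at 174 in LPD line 4 and 7.70 in NPD line 15 against 1110 to 1493 in the other 8 lines, and the median of X-linked genes was 0.49 higher in NPD line 15 on the log2 scale. LPD line 6, NPD line 8 and NPD line 15 stood apart from the rest in their summed markers of fibroblasts and of primitive endoderm, given below.

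Per kb, averaged over the 10 lines, Tfap2c, which encodes AP-2 gamma, had the highest level of the 10 genes at 838, followed by Krt8 at 625 and Krt18 at 531. Krt19 (107) and Eomes (90.6) came next, then Hand1 (48.5), Gata3 (39.7) and Krt7 (35.8). Cdx2 stood at 11.6 and Elf5 at 1.09. Over the lines Krt7 ranged 26.8-fold, Cdx2 18.3-fold and Gata3 9.33-fold, so Hand1, Gata3 and Krt7 cannot be put in order beyond the spread between lines. The ESC factors Pou5f1 (18250 to 30420), Sox2 (7481 to 10969) and Nanog (5141 to 11571) were high in every line. The trophectoderm factors were uneven in these cells. Tfap2c was at 1439.8 or above, Eomes at 245 or above and Gata3 at 28.4 or above in every line, while Cdx2 lay between 5.34 and 38.3 in 9 of 10 lines and Elf5 at 6.18 or below in all.

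**Figure D1:**
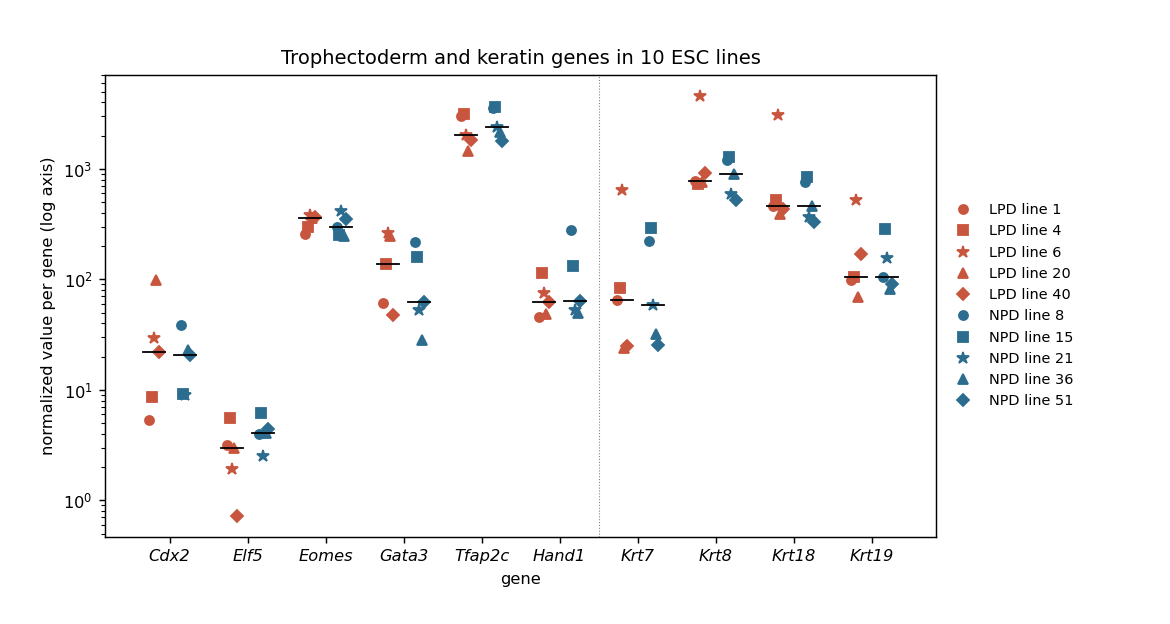
Normalized value of each of the 10 genes (x axis) in each ESC line, on a log axis, with LPD lines in red and NPD lines in blue and the black bar at the median of 5 lines. LPD line 6 (red star) lies above every other line for Krt7, Krt8, Krt18 and Krt19, and LPD line 20 (red triangle) above every other line for Cdx2.

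Krt8 and Krt18 were the keratins with the highest levels per kb, and 1 LPD line held several times more of both than any other line. Krt8 measured 768, 724, 4577, 761 and 914 in LPD lines 1, 4, 6, 20 and 40. In NPD lines 8, 15, 21, 36 and 51 it measured 1209, 1282, 589, 903 and 519. LPD line 6 was 3.57-fold above the next line, NPD line 15, and the other 4 LPD lines lay within the range of the NPD lines. The means were 1549 ± 1694 (SD, n = 5) for LPD and 900.2 ± 348 (SD, n = 5) for NPD, with a log2 fold change of 0.41 (SE 0.46, exact permutation p = 0.635). Krt18, its type I partner, measured 459.5, 526, 3053, 394 and 432 in the LPD lines and 755, 852, 369, 456 and 329 in the NPD lines, each in the same order. LPD line 6 was again the highest, 3.58-fold above NPD line 15, and the diets overlapped. The log2 fold change of Krt18 was 0.36 (SE 0.50, exact permutation p = 0.722). Without LPD line 6 the LPD means came to 792 ± 83.6 for Krt8 and 453 ± 55.8 for Krt18 (SD of 4 lines). These were below the NPD means of 900.2 and 552, and the log2 fold changes turned to -0.10 and -0.19. Without LPD line 6, NPD line 8 and NPD line 15 together, the log2 fold changes were 0.28 (SE 0.19) and 0.24 (SE 0.16).

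Krt8 and Krt18 lie side by side on chromosome 15 (GRCm38) and are read away from each other, with 23698 bases between their starts. Krt8 spans 101996698 to 102004482 on the minus strand and Krt18 spans 102028180 to 102032027 on the plus strand. The bases just before each start are shown because both genes were highest in the same lines. They come from RefSeq (GRCm38.p6), run 5′ to 3′ on the strand of the gene, and carry in capitals each match, on either strand, to GGGNGNGG, a motif of KLF and Sp factors, among them Klf5 of the inner and outer blastocyst cells.
Krt8, chr15:102004483-102004592, minus strand: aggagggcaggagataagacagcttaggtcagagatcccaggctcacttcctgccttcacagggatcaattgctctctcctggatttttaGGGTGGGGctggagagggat
Krt18, chr15:102027966-102028179, plus strand: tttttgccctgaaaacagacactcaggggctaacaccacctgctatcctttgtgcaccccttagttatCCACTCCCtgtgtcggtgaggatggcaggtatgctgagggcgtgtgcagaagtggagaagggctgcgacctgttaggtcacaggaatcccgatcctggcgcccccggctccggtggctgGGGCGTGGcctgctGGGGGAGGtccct
In windows from 250 bases before to 50 bases after the start, GGGNGNGG matched 1 time for Krt8, 3 times for Krt18 and 2 times for Krt7, and 49.5% of 32851 such windows held it at least once. It was not particular to the keratins, with 2 matches for Cdx2, 1 for Eomes and 3 for Gata3. It can overlap the GC box GGGCGG, which had no match at Krt8 or Krt18, 4 at Krt7 and 2 at Gata3, and occurred in 35.7% of windows. The TEAD motif GGAATG (14.7% of windows) and the AP-1 motif TGANTCA (7.81%) had no match in the windows of Krt8, Krt18 and Krt7, and the TATA box letters TATAAA (13.6%) matched 2 times at Krt8. Promoter windows were found for 7 of the 10 genes, all but Tfap2c, Hand1 and Krt19.

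Krt7 had the widest spread of the 9 genes tested over all 10 lines, and Krt19 followed the same line at its top. Krt7 measured 65.0, 84.2, 638, 23.9 and 24.8 in LPD lines 1, 4, 6, 20 and 40 and 223, 289, 58.5, 31.7 and 25.3 in NPD lines 8, 15, 21, 36 and 51. LPD line 6, NPD line 15 and NPD line 8 formed the top of both diets, and the remaining 7 lines lay at 84.2 or below. The log2 fold change was -0.11 (SE 0.90, exact permutation p = 0.897). Krt19 measured 99.0, 104, 526, 68.8 and 169 in the LPD lines and 105, 285, 156, 82.1 and 91.4 in the NPD lines, in the same order. It was highest in LPD line 6, 1.84-fold above NPD line 15, and the diets overlapped, with a log2 fold change of 0.17 (SE 0.50, exact permutation p = 0.802). Without LPD line 6 this value was -0.29 for Krt19 and -0.88 for Krt7.

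The transcript levels of the partner keratins differed less from each other than between lines. Per kb, the level of Krt8 was 1.01 to 1.55 times that of Krt18 over the 10 lines, and LPD line 6 lay inside this range at 1.10. The mean ratio was 1.26 ± 0.224 in LPD and 1.21 ± 0.138 in NPD lines (SD, n = 5 each, exact permutation p = 0.754). The ratio of both type II to both type I keratins ran from 0.885 to 1.27. The summed value of the 4 keratins ran from 965 in NPD line 51 to 8795 in LPD line 6.

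The table held 22 other keratin genes, of which 17 had a mean under 10 and 5 were tested. Krt42 alone had a mean of at least 100, and at 125 to 258 it varied much less than Krt7, Krt8, Krt18 and Krt19. Its value in LPD line 6 was 205, inside that range. Krt17 and Krt20, named after their values were seen, were highest in LPD line 6 at 147 and 103.

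**Figure D2:**
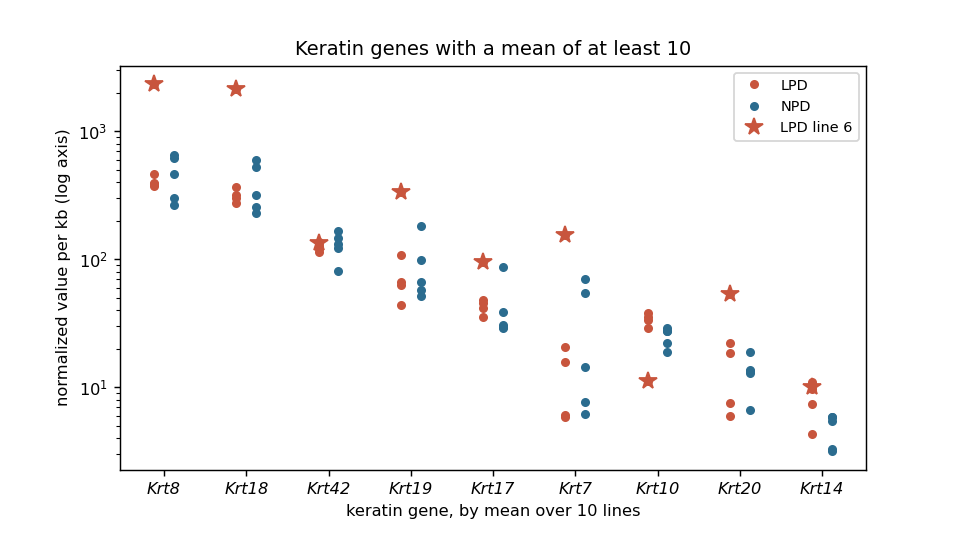
Normalized value per kb of the longest transcript (log axis) of the 9 keratin genes with a mean of at least 10, with 1 point for each LPD (red) and NPD (blue) line and a star for LPD line 6. The star tops Krt8, Krt18, Krt19, Krt17, Krt7 and Krt20 and is the lowest point for Krt10.

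Among the factors, Cdx2, the homeobox factor needed for the trophectoderm lineage, was highest in 1 LPD line. It measured 5.34, 8.62, 29.2, 97.9 and 22.1 in LPD lines 1, 4, 6, 20 and 40 and 38.3, 9.11, 9.05, 23.1 and 20.5 in NPD lines 8, 15, 21, 36 and 51. LPD line 20 was 2.56-fold above NPD line 8, and its value stands for 129 reads. The values of LPD lines 1 and 4 stand for 7.0 and 3.0 reads. The log2 fold change was 0.21 (SE 0.68, exact permutation p = 0.841), and it was -0.35 without LPD line 20. Elf5, an ETS factor of trophoblast stem cells, lay between 0.726 and 6.18 in all lines, which is 0.5 to 8.2 read equivalents, and its mean of 3.55 was below the minimum for testing. With no filter its log2 fold change was -0.53 (SE 0.44, limma adjusted p = 0.981).

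Gata3, a zinc finger factor that acts beside Cdx2, measured 60.9, 137, 265, 246 and 47.1 in the LPD lines and 218, 160.2, 53.2, 28.4 and 62.4 in the NPD lines. LPD lines 6 and 20 were above every NPD line, and the other 3 LPD lines lay among them. The log2 fold change was 0.58 (SE 0.60, exact permutation p = 0.429), and it ran from 0.22 without NPD line 36 to 0.94 without NPD line 8 when single lines were left out, and was 1.11 without LPD line 6, NPD line 8 and NPD line 15 together. Hand1, a helix-loop-helix factor of trophoblast giant cells, measured 46.0, 114, 75.4, 48.7 and 62.6 in the LPD lines and 278, 133, 52.6, 49.6 and 64.1 in the NPD lines. NPD line 8 was 2.09-fold above the next line, and the diets overlapped, with a log2 fold change of -0.47 (SE 0.45, exact permutation p = 0.421). Without NPD line 8 this value was -0.069, and without LPD line 6, NPD line 8 and NPD line 15 together it was 0.20.

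Tfap2c, which is shared by trophectoderm and germ cell precursors, measured 3025, 3116, 2029.9, 1439.8 and 1818 in the LPD lines and 3579, 3663, 2395, 2151 and 1782 in the NPD lines. NPD lines 8 and 15 were the highest and LPD line 20 the lowest, so that the line with the most Cdx2 had the least Tfap2c. The log2 fold change of Tfap2c was -0.25 (SE 0.24, exact permutation p = 0.405). Eomes, a T-box factor of trophoblast stem cells and later of mesendoderm, was the most even of the 9 genes tested over all 10 lines, between 245 and 412. Its log2 fold change was 0.11 (SE 0.17, exact permutation p = 0.571), and its diets overlapped.

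No difference between the diets was found for any of the 9 genes tested. In limma on log2(value + 1), with Benjamini-Hochberg adjustment over all genes tested, 0 of 9 passed an adjusted p of 0.1 (0% of all genes did), with adjusted p from 0.994 to 0.997. At an unadjusted p under 0.05 there were again 0 of 9, against 5.02% of all genes. An exact Mann-Whitney test also gave 0 of 9 at either threshold. Of all 14354 genes, 516 had an unadjusted Mann-Whitney p under 0.05 and 0 passed the adjustment. No gene of the 9 had diets that did not overlap, against 1.02% of all genes. The estimate was higher in LPD for 6 genes and lower for 3, with a median of 0.27 over the 4 keratins and 0.11 over the 5 factors, beside 0.0020 over all genes tested. The 95% intervals of the log2 fold change ran from -0.59 to 1.41 for Krt8, -0.72 to 1.44 for Krt18, -2.05 to 1.84 for Krt7 and -0.72 to 1.88 for Gata3, so a 2-fold difference in either direction lay inside some of them. For Eomes (-0.26 to 0.47) and Tfap2c (-0.78 to 0.28) a 2-fold difference lay outside the interval, but with depth as a covariate the interval of Tfap2c ran from -1.08 to 0.22 and held it. RNA was taken from whole cultures, in which fewer cells of a type and less RNA per cell cannot be told apart.

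**Figure D3:**
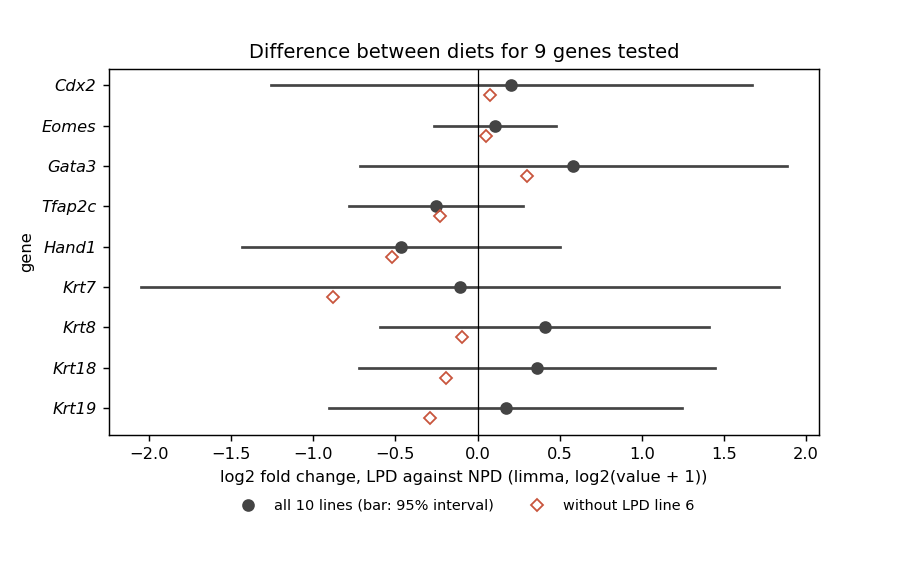
Log2 fold change of LPD against NPD lines on log2(value + 1) for the 9 genes tested, with 95% intervals from limma over all 10 lines (circles and bars) and the estimate without LPD line 6 (open diamonds). Every interval holds 0, and leaving out LPD line 6 takes Krt8, Krt18 and Krt19 from above 0 to below it.

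The spread between lines of 1 diet was wide for several of these genes. Over all 10 lines the residual SD of the log2 values was above the 90th percentile of all genes tested for 7 of 9, with Krt7 at 99.1, Cdx2 at 97.5, Gata3 at 97.0 and Krt18 at 95.1. Tfap2c (76.0) and Eomes (52.7) were below it. Without LPD line 6 the count was 4 of 9 (Krt7, Cdx2, Gata3 and Hand1), with Krt8 at 76.0, Krt18 at 77.6 and Krt19 at 87.9, and without LPD line 6, NPD line 8 and NPD line 15 together it was 3 of 9 (Cdx2, Gata3 and Krt7). LPD line 6 was the highest line for 5 of 9 genes, the 4 keratins and Gata3, against 13.3% of all genes. Its log2 value was above the median of the other 9 lines by 3.43 for Krt7, 2.74 for Krt18, 2.57 for Krt8, 2.33 for Krt19 and 2.07 for Gata3, and 1.09% of all genes were above by more than 2. LPD line 6 was singled out after its values were seen.

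**Figure D4:**
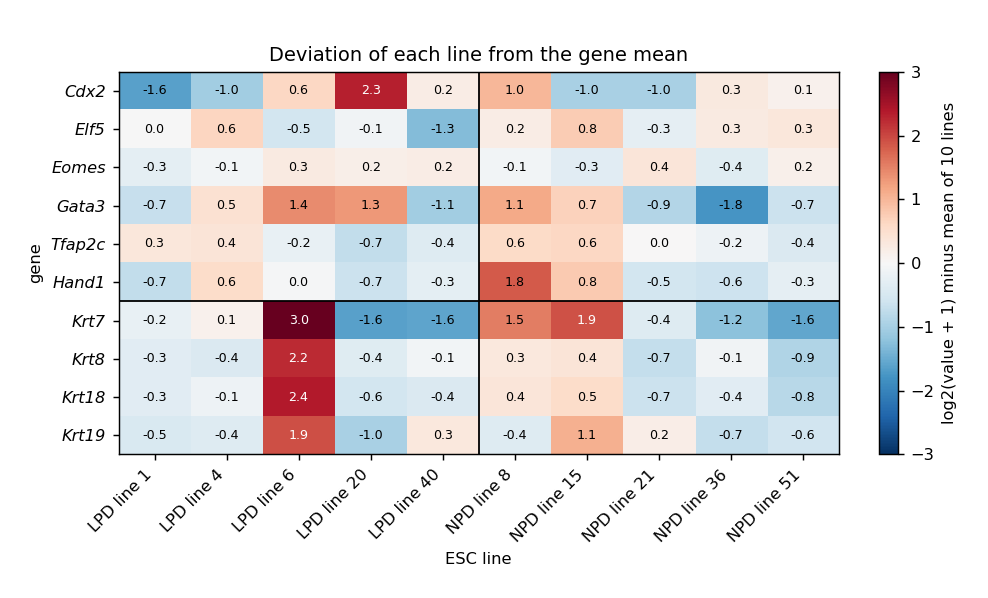
Log2(value + 1) of each gene (rows) in each line (columns) minus the mean of the gene over 10 lines, with factors above and keratins below the horizontal line and LPD lines left of the vertical line. LPD line 6 is red for all 4 keratins, NPD line 15 is also above the mean for all 4, and Eomes stays within 0.4 of its mean in every line.

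Across the 10 lines the keratins varied together. Of 36 pairs of the 9 genes, 6 passed an adjusted permutation p of 0.1 by Pearson's r, and these were the 6 pairs of keratins. By Spearman's rho 2 pairs passed. Krt8 and Krt18 had r = 0.98 (permutation p = 6.0e-05, adjusted p = 0.00216) and Spearman's rho = 0.83 (permutation p = 0.00494, adjusted p = 0.0889). Without the lines farthest from the median of Krt8, LPD line 6 and NPD line 51, r was 0.87, and without LPD line 6 alone it was 0.90. Without LPD line 4 and NPD line 15, the lines with little Ddx3y, it was 0.99. Krt7 and Krt18 had r = 0.89 (permutation p = 0.00024, adjusted p = 0.00432) and rho = 0.87 (permutation p = 0.00206, adjusted p = 0.0742), and r was 0.84 without LPD line 6 and NPD line 15. High values without LPD line 6 were not limited to pairs of keratins. In that setting Krt7 had r = 0.93 with Tfap2c and 0.91 with Krt18. Krt18 had r = 0.80 with Tfap2c and 0.81 with Hand1, but -0.61 with Eomes. Over all 10 lines r for Krt7 and Tfap2c was 0.58 (adjusted permutation p = 0.213). Within the diets, r for Krt8 and Krt18 was 0.98 in LPD and 0.97 in NPD lines. For Krt7 and Krt18 it was 0.95 and 0.93. These values are each over 5 lines, with no test. The LPD values include LPD line 6, far above the other LPD lines for these genes, and were not computed without it. Among the other LPD lines, Krt8 was highest in line 40 (914) and Krt18 in line 4 (526).

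The other keratin pairs rested on few lines. The lines farthest from the median were LPD line 6 and NPD line 15. For Krt8 and Krt19 they were LPD line 6 and NPD line 51, the lowest line for Krt8. Without the lines farthest from the median, r fell from 0.81 to 0.47 for Krt7 and Krt8, from 0.80 to 0.38 for Krt8 and Krt19, from 0.82 to -0.012 for Krt18 and Krt19, and from 0.76 to 0.13 for Krt7 and Krt19. Their adjusted p by rho was 0.338. Without LPD line 6, NPD line 8 and NPD line 15 together, r was 0.69 for Krt8 and Krt18, 0.55 for Krt7 and Krt18, and -0.13 for Krt7 and Krt8. In the same setting Krt7 had r = 0.94 with Tfap2c and -0.81 with Cdx2. Among the factors no pair passed. Cdx2 and Tfap2c had the most negative value, r = -0.61 (permutation p = 0.0593, adjusted p = 0.194), with rho = -0.43 (permutation p = 0.218, adjusted p = 0.435) and r = -0.30 without LPD lines 20 and 1. Gata3 and Krt18 had r = 0.60 (permutation p = 0.0397) with rho = 0.50 (permutation p = 0.146), and did not pass the adjustment.

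The genes most like each gene with a mean of at least 100 were sought by Pearson's r of log2 values over the 10 lines, among 10454 genes of the same minimum, as a description. Krt8 was the nearest gene to Krt18, and Krt18 to Krt8, followed for both by Tpm2, a tropomyosin of actin filaments (r = 0.97 for each), and the early response gene Ier5 (0.95 for each). Without LPD line 6, Krt8 had r = 0.91 with Tpm2, above the 0.90 it had with Krt18, and 0.85 with Ier5. Krt7 was nearest to Gstz1 (0.96), Rbm47 (0.94), which encodes an RNA-binding protein, and Rhox6 (0.93), a placental homeobox gene whose values are identical to those of another gene, so that its reads cannot be assigned to 1 of them. Krt19 was nearest to 9530068E07Rik (0.96), the lysosomal protease gene Ctsb (0.93) and Ets2 (0.92), an ETS factor of trophoblast. Gata3 was nearest to Nrp2 (0.98), a semaphorin receptor gene, Mt2 (0.93), a metallothionein, and Cpped1 (0.92). Tfap2c was nearest to Mapk8ip3 (0.98), Cnst (0.97) and Sbk1 (0.96), and Eomes to Sh3d21 (0.92), Ppp2r1a (0.92) and Chtop (0.91).

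The genes that act upstream of the trophectoderm factors, or with them, gave 2 of 24 at an unadjusted p under 0.05, both higher in LPD, against 2.84% of all genes in that direction. Klf5, a zinc finger factor of both inner and outer blastocyst cells, measured 5664, 6688, 7097, 7415 and 4679 in LPD lines 1, 4, 6, 20 and 40 and 3839, 4166, 4795, 4406 and 4772 in NPD lines 8, 15, 21, 36 and 51. All LPD lines but line 40 were above every NPD line, with a log2 fold change of 0.51 (SE 0.12, exact permutation p = 0.0238, limma adjusted p = 0.451). Klf5 passed the adjustment without LPD line 40 (adjusted p = 0.0508) and under no other alternative. It is on a list the study drew from these same lines, so its direction is not independent evidence. Wwtr1, the Hippo pathway coactivator TAZ, measured 895 to 972 in the LPD lines and 677 to 887 in the NPD lines, which did not overlap, with a log2 fold change of 0.27 (exact permutation p = 0.00794, the smallest that 5 against 5 lines allow, limma adjusted p = 0.860).

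Of 18 trophoblast stem cell and placental genes tested, out of 25 in the table, 1 was higher and 1 lower in LPD at an unadjusted p under 0.05, against 2.84% and 2.18% of all genes. Phlda2, an imprinted gene that restrains placental growth, had means of 573 ± 134 in LPD and 390.0 ± 59.8 in NPD lines (SD, n = 5 each, log2 fold change 0.54, limma adjusted p = 0.681). Ascl2, an imprinted factor of the spongiotrophoblast, had means of 39.5 ± 13.2 and 66.9 ± 31.3 (SD, n = 5 each, log2 fold change -0.71, limma adjusted p = 0.987). Ascl2 kept an unadjusted p under 0.05 in 3 of 10 fits with a line left out, and its log2 fold change was -0.47 without NPD line 15, where it measured 121, and -0.35 without LPD line 6, NPD line 8 and NPD line 15 together. The list had its highest line in NPD line 15 for 8 of the 18 genes, against 12.1% of all genes, and 8 of the 25 were at 0 in at least 1 line.

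Epithelial junction and polarity genes, some of them genes of the desmosomes that hold keratin filaments at the cell border, gave 0 of 25 at an unadjusted p under 0.05, against 5.02% of all genes. Their line of highest value was LPD line 6 for 16 of 25, against 13.3% of all genes, the same line that was highest for the 4 keratins. The smallest p belonged to Dsg2, a desmoglein (875 ± 113 in LPD and 747 ± 90.9 in NPD, SD, n = 5 each, limma adjusted p = 0.994), and to Pkp2, a plakophilin (581 ± 114 and 476 ± 67.4, SD, n = 5 each, limma adjusted p = 0.994), both desmosome genes. Epithelial regulators and membrane proteases gave 0 of 18, led by Spint2 and Ovol2, and their highest line was LPD line 6 for 8 genes and NPD line 15 for 7, against 13.3% and 12.1% of all genes. Among 11 intermediate filament partners, 1 was higher in LPD at an unadjusted p under 0.05, against 2.84% of all genes. This was Des, which encodes desmin (458 ± 156 against 312 ± 56.9, SD, n = 5 each, log2 fold change 0.51, limma adjusted p = 0.957), and Lmna was next (limma adjusted p = 0.994). Des kept an unadjusted p under 0.05 in 5 of 10 fits with a line left out, and its log2 fold change was 0.35 without LPD line 6 (limma unadjusted p = 0.0965).

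Summed fibroblast, primitive endoderm and two-cell-like markers set apart the same 3 lines as the keratin sum did. Krt19 alone did not, since NPD line 8 (105) lay below LPD line 40 (169). The summed value of 15 fibroblast genes was 4907 in LPD line 6, 8334 in NPD line 15 and 2924 in NPD line 8, against 655 to 1542 in the other 7 lines. These were also the 3 lines with the highest keratin sums, 8795, 2708 and 2292, against 965 to 1540 in the other 7, but in another order. Among the other 7, LPD line 40 had the highest keratin sum (1540) and the lowest fibroblast sum (655). Col1a1, a fibroblast collagen, was 1704 in LPD line 6, 2709 in NPD line 15 and 1016 in NPD line 8. Not every marker set NPD line 8 apart. Its Col6a1 (19.4), Col6a2 (26.3), Thy1 (80.3) and Twist1 (102) lay within the range of the other 7 lines. Lum, a defining fibroblast gene, was 111 in NPD line 15 but 1.39 in LPD line 6 and 0 in NPD line 8, and 4 of the 15 genes were at 0 in at least 1 line. NPD line 15 was the highest line for 12 of the 13 fibroblast genes tested. Of these 13, 0 passed an unadjusted p of 0.05 between the diets, against 5.02% of all genes.

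The same 3 lines had the lowest sums of 20 primitive endoderm genes, 25617 in LPD line 6, 29178 in NPD line 8 and 22928 in NPD line 15, against 41080 to 72509 in the other 7 lines. NPD line 15 was the lowest line for 15 of the 18 such genes tested and LPD line 6 for the other 3, against 11.3% and 13.2% of all genes. Gata6, a defining factor of this lineage, stood at 39.4 in NPD line 15, 109 in LPD line 6 and 199.8 in NPD line 8, against 176 to 569.9 in the other 7 lines. Of the 20 genes 3 were at 0 in at least 1 line. At an unadjusted p under 0.05 there were 0 of 18, against 5.02% of all genes, Lamb1 and Foxa2 having the smallest p. Summed two-cell-like genes were also lowest in these 3 lines, at 343 in NPD line 15, 576 in LPD line 6 and 849 in NPD line 8 against 1112 to 2682. Of these genes 0 of 11 had an unadjusted p under 0.05, against the same 5.02%, Zscan4d and Tcstv3 leading. The part of these cell types in the keratin levels was not tested.

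**Figure D5:**
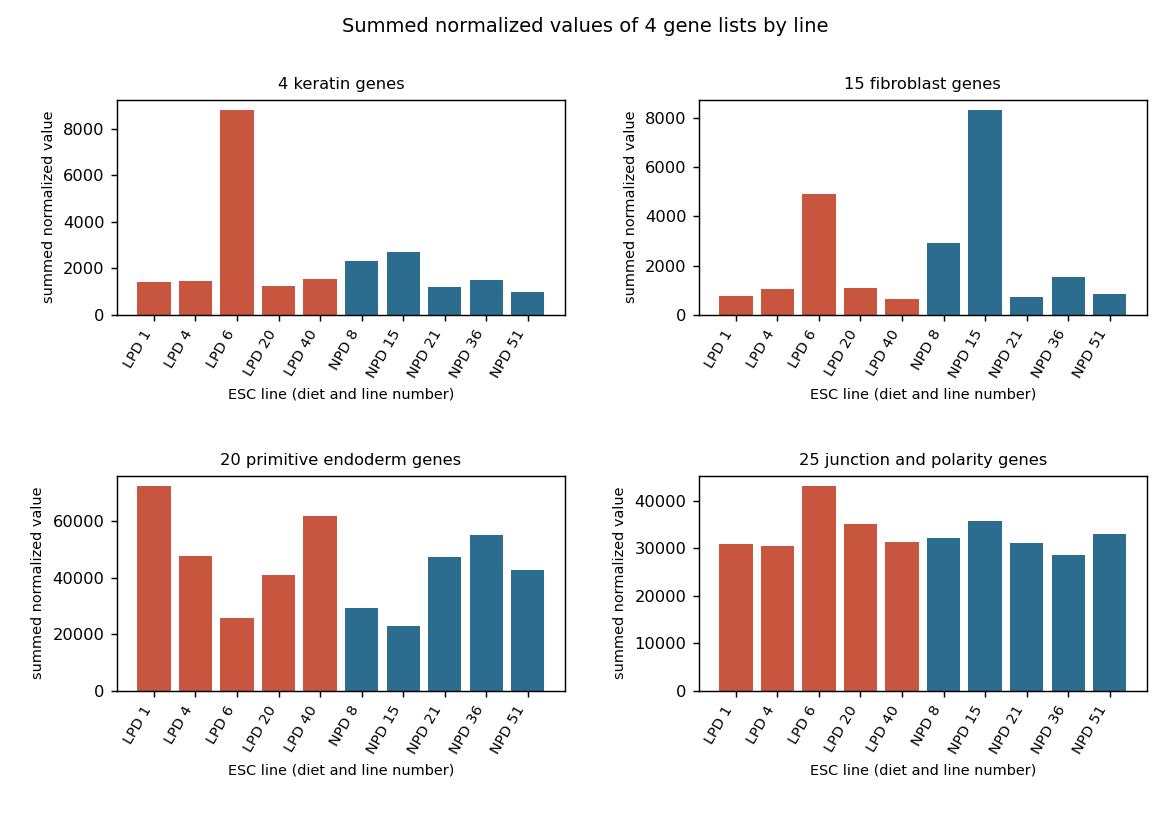
Summed normalized value per line (bars, LPD red and NPD blue, each axis from 0) of the 4 keratins, 15 fibroblast genes, 20 primitive endoderm genes and 25 junction and polarity genes. LPD line 6 is the highest line for the keratins (8795) and the junction genes (43185), NPD line 15 for the fibroblast genes (8334), and LPD line 6, NPD line 8 and NPD line 15 are the lowest lines for the primitive endoderm genes.

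Summed pluripotency genes moved little by comparison, although Dppa3 (50.6 to 379) and Prdm14 (69.2 to 401) varied widely between lines. Their sum ran from 70768 to 89876 over the lines, with 72536 in LPD line 6, and 1 of 13 passed an unadjusted p of 0.05, against 5.02% of all genes. This was Prdm14, lower in LPD (213 ± 85.8 against 322 ± 59.8, SD, n = 5 each, log2 fold change -0.73, limma adjusted p = 0.987), and Fgf4 was next. Prdm14 kept an unadjusted p under 0.05 in 6 of 10 fits with a line left out, and its log2 fold change was -0.37 without LPD line 20. Of 9 primordial germ cell genes, Kit (1551 ± 253 against 2018 ± 357, SD, n = 5 each, limma adjusted p = 0.860) and Prdm14 again were lower in LPD, against 2.18% of all genes in that direction. Of 5 mesendoderm genes tested 0 passed, against 5.02% of all genes, Foxa2 and Gsc having the smallest p. Median log2 fold changes were 0.017 over the upstream regulators, 0.0038 over the placental genes, 0.098 over the junction genes, 0.044 over the epithelial regulators and 0.17 over the filament partners, beside 0.0020 over all genes tested. They were -0.85 over the fibroblast genes, 0.36 over the primitive endoderm genes, -0.077 over the pluripotency genes, -0.098 over the germ cell genes, 0.34 over the mesendoderm genes and 0.035 over the two-cell-like genes.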

How the data were processed

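RNA sequencing of 10 ESC lines (5 LPD, 5 NPD) was analysed. The authors trimmed reads, quantified transcripts with Salmon on GRCm38 transcripts and tested transcripts with Sleuth. The deposited values are a normalized signal, that is estimated counts per gene which the name of the table calls normalized. How transcripts were summed is not given in the sources used here. Of its 20206 genes, 19891 were matched to GENCODE M21 (GRCm38), 315 were not, and 0 columns were without a line. Of low values of genes with 1 transcript, 92.3% to 99.7% in a line were whole multiples of 1 read within 0.15, but over all genes 67.5% to 73.7%, so no count model was used. The value of 1 read gave the depth (5845851 to 24107247 read equivalents). Genes with low values are less precise in LPD lines 4, 6 and 40.

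The 14354 genes whose mean reached 10 entered limma 3.58.1 (R 4.3.3, trend, no covariate) on log2(value + 1), which understates changes of low genes. Calls were made at a Benjamini-Hochberg adjusted p of 0.1 and at an unadjusted p of 0.05. Single genes were tested by two-sided exact permutation over 252 assignments, pairs of genes by permutation with 100000 resamples. Other steps ran in Python 3.11.15 (scipy 1.17.1, pandas 2.3.3, numpy 2.4.6, matplotlib 3.10.9). The code was also run on simulated data built from the gene means and residual SDs of these lines. With 100 genes changed at each size, it recovered 76% of log2 changes of 1 and 96% of those of 2, with 29 false calls. The changed genes were drawn at random and each gene varied independently. These rates therefore do not give the power for the 9 genes, of which 7 had a residual SD above the 90th percentile.

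The members and lists were chosen with earlier results of these data known. Named were the 10 genes, other keratins with a mean of at least 100, the 2 genes of each list with the smallest p, partners described as background, and for each of the 10 genes that reached this mean the 3 genes with the highest r. Alternatives were pseudocounts of 0.5 and 10, a minimum mean of 100 or none, equal totals, quantile normalization, limma with no trend, robust or with array weights, a Mann-Whitney test, depth as a covariate, each line left out in turn, and LPD line 4 and NPD line 15 left out together. Leaving out LPD line 6, NPD line 8 and NPD line 15 together, and the correlations without LPD line 6 or other lines, were added after seeing the data.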

Additional observations from a re-analysis of the deposited data

Results flagged for a closer look

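Among 20 groups (10 genes in 5 lines of each diet), 2 held a line whose gap to the next, divided by the range of the group on the log2 scale, was above Dixon's 95% critical value for 5 lines, and chance flags about 1 in 20 groups. Krt8 in LPD line 6 was at 4577, with a gap of 0.874 of the range. Krt18 in LPD line 6 was at 3053, with a gap of 0.859 of the range. Both values come from 1 line, and the genes vary together over the 10 lines (r = 0.98), so they are not independent.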

How the results depend on the processing

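Under 23 alternatives, 0 of the tested members passed an adjusted p of 0.1 or an unadjusted p of 0.05, and the smallest adjusted p was 0.912. The count of all genes called was 0 as reported, 1 with array weights, 1 without LPD line 6, NPD line 8 and NPD line 15 together, and 0 to 40 with 1 line left out, 40 of them without LPD line 40. Of 196 fold changes of the members, 177 kept their direction and 19 turned. The median of the keratins ran from -0.24 (without LPD line 6) to 0.60 and that of the factors from -0.10 to 0.19. With 1 line left out, log2 fold changes ran from -0.10 (without LPD line 6) to 0.57 for Krt8, -0.19 (without LPD line 6) to 0.55 for Krt18, -0.29 (without LPD line 6) to 0.46 for Krt19, -0.88 (without LPD line 6) to 0.36 (without NPD line 15) for Krt7, -0.68 (without NPD line 36) to -0.069 (without NPD line 8) for Hand1, 0.22 (without NPD line 36) to 0.94 (without NPD line 8) for Gata3, and -0.35 (without LPD line 20) to 0.64 for Cdx2. Without LPD line 6, NPD line 8 and NPD line 15 together they were 0.28 for Krt8, 0.24 for Krt18 and 0.23 for Krt7. In the same setting they were -0.0086 for Krt19, -0.051 for Eomes, 0.090 for Tfap2c and 0.20 for Hand1. Krt7 was 0.26 and Cdx2 -0.11 with array weights, Krt7 was 0.31 without LPD line 4 and NPD line 15 together, and Krt19 was -0.064 with depth as a covariate. The cause was not tested. No paired analysis was possible because each line came from a different mother, and each mother ate 1 diet.

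Low read numbers limit Elf5, at under 10 read equivalents in every line, and Cdx2 in LPD lines 1 and 4, at 7.0 and 3.0. Line numbers come from the labels, and 5 lines a diet leave wide intervals for the keratins.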
